A study of Bos taurus with 12 samples.

Results

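The transcripts of 3 genes were followed across the peripheral white blood cells (PWBCs) of beef heifers: ESR1 (ENSBTAG00000007159), NNAT (ENSBTAG00000003212) and BMP1 (ENSBTAG00000000917), 3 of the 27607 genes counted. They were chosen by identifier because ESR1 had been singled out by its correlations with other genes in fertile heifers, with fewer such partners in subfertile heifers, and NNAT and BMP1 were among those partners. NNAT had also been listed for a lower level in subfertile heifers. The correlations among the members in fertile heifers, the numbers of their partners and the level of NNAT are therefore given as descriptions, with no test.

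The animals were Simmental-Angus crossbred heifers, all given the same estrus synchronization with GnRH, an intravaginal progesterone insert and a prostaglandin, inseminated once with semen of a single Angus bull, and then exposed to bulls. Jugular blood was drawn 2 days before artificial insemination (AI). The 6 fertile heifers (labelled Pregnant) conceived to AI, and the 6 subfertile heifers (labelled Open) were not pregnant after AI and natural service, so the groups were named after the blood had been taken. The reproductive tract score, a palpation score of pubertal development, was 5 in 1 heifer of each group (LM1247, fertile, and LM1246, subfertile) and 4 in the others. No group carried a treatment that the other lacked.

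ESR1 encodes estrogen receptor alpha, a nuclear receptor that binds estradiol and regulates transcription at estrogen response elements; lymphoid and myeloid cells carry it at low level compared with the reproductive tract. NNAT encodes neuronatin, a small proteolipid of the endoplasmic reticulum membrane that is imprinted, expressed from the paternal allele, and known as a modulator of calcium pumps. BMP1 encodes a secreted metalloproteinase, the procollagen C-proteinase, which trims fibrillar procollagens and cleaves chordin, an antagonist of bone morphogenetic proteins.

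Counts summed to between 14010736 and 21278761 per library, with 1 library per heifer, and 13012 genes passed the filter on low counts, all 3 members among them. Levels are in CPM, counts scaled to a common library total, with that total adjusted by TMM, the trimmed mean of M-values. Named T cell markers (CD3E, CD4, CD8A and CD2) summed to between 603 and 1271 CPM and named B cell markers (CD79A and PAX5) to between 367 and 750.5 CPM, so the labelled white blood cells carried lymphocyte transcripts in every library. The fertile library LM1330 stood apart: its named platelet markers (GP9, ITGA2B, TUBB1 and ITGB3) summed to 9913 CPM, against 536 to 2767 CPM in the other fertile and 528 to 3165 CPM in the subfertile libraries. In the same library CCR3, an eosinophil chemokine receptor, was at 207 CPM, against 10.9 to 51.4 CPM in the other libraries. In bulk RNA, fewer cells of a type and less RNA per cell cannot be told apart. Each member is therefore also given without LM1330.

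All 3 members were low in these cells. Of the genes kept, 15.4% had a lower mean abundance than ESR1, 19.01% a lower one than NNAT and 6.68% a lower one than BMP1. At least 10 reads were counted in 12 of 12 libraries for ESR1 and NNAT, and in 8 of 12 for BMP1. The relative counting error of a single value, 1 over the square root of its count, ran from 5.95% (NNAT in LM1330, 282 reads) to 70.7% (BMP1 in LM1313, 2 reads). These errors cover counting only.

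ESR1 was at 2.18 CPM in the lowest fertile heifer, 2.63 CPM at the median and 5.32 CPM in the highest. In subfertile heifers the lowest was 0.925 CPM, the median 1.75 CPM and the highest 5.96 CPM. The groups overlapped: LM1246, subfertile, carried 128 reads and the highest level of all 12. The other 5 subfertile heifers lay between 0.925 and 2.20 CPM, of which LM1283 (2.20 CPM, 38 reads) was just above the lowest fertile heifer, LM1262 (2.18 CPM, 36 reads). Of the 6 fertile heifers, 6 were above the subfertile median, and 1 of 6 subfertile heifers was above the fertile median. The fertile mean was 3.17 ± 1.20 CPM (SD, n = 6). The subfertile mean was 2.28 ± 1.87 CPM (SD, n = 6).

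The difference in ESR1 did not exceed this spread. The log2FC of subfertile against fertile was -0.47 (SE 0.43; edgeR quasi-likelihood test, P = 0.295, Benjamini-Hochberg adjusted P = 0.9998), and a two-sided exact permutation test of mean log2 CPM gave P = 0.143, where the smallest value the 462 splits allow is 0.002165. Without LM1246 the log2FC was -1.04 (edgeR unadjusted P = 0.00818). Without LM1330 it was -0.26 (edgeR unadjusted P = 0.560) and without LM1265 -0.31 (edgeR unadjusted P = 0.480). With the reproductive tract score as a term it was -0.72 (edgeR unadjusted P = 0.0853). Each of these 4 changes moved the value by more than 1.5 times.

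NNAT was spread differently. Of the fertile heifers, 4 lay between 0.969 and 2.93 CPM, LM1298 was at 8.10 CPM and LM1330 at 17.0 CPM, with 168 and 282 reads. The subfertile heifers lay between 0.746 CPM in LM1246 and 3.13 CPM in LM1265, with a median of 2.18 CPM, close to the fertile median of 2.26 CPM. The 2 highest values were thus fertile and 3 of 6 fertile heifers were above the subfertile median. Fertile heifers averaged 5.28 ± 6.35 CPM (SD, n = 6) against a subfertile average of 2.15 ± 0.899 CPM (SD, n = 6), so the fertile SD was above the difference. The fitted log2FC was -1.31 (SE 0.66) and became -0.47 without LM1330 and -0.67 with voom in place of edgeR.

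BMP1 was the lowest of the 3 members, and its spread was wider among subfertile than among fertile heifers. Fertile heifers lay between 0.242 CPM in LM1330 and 1.76 CPM in LM1262, with a median of 1.25 CPM. Subfertile heifers lay between 0.108 CPM in LM1313 and 3.59 CPM in LM1283, with a median of 0.603 CPM. The 2 highest heifers, LM1283 and LM1265 with 62 and 34 reads, and the lowest, LM1313 with 2 reads, were all subfertile, and the fertile range lay within the subfertile range. Fertile heifers averaged 1.13 ± 0.576 CPM (SD, n = 6) against a subfertile average of 1.27 ± 1.41 CPM (SD, n = 6). No difference was detected: the log2FC was 0.14 (SE 0.70; edgeR P = 0.842, adjusted P = 0.9998; exact permutation P = 0.643), and its sign changed without LM1283 (-0.54), without LM1265 (-0.14) or without LM1330 (-0.08), and with voom in place of edgeR (-0.56).

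**Figure D1:**
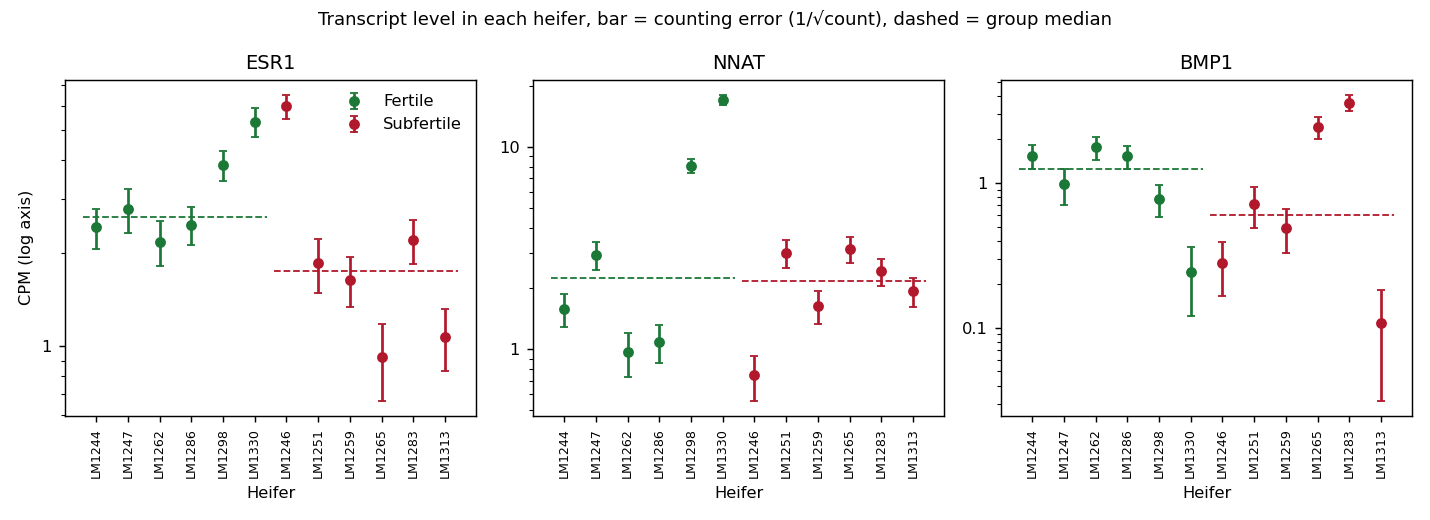
Level of ESR1, NNAT and BMP1 in each heifer, in CPM on a log axis, with fertile heifers in green and subfertile heifers in red; bars are the counting error of each value and dashed lines the group medians. LM1246 is the highest for ESR1 at 5.96 CPM, LM1330 the highest for NNAT at 17.0 CPM and LM1283 the highest for BMP1 at 3.59 CPM.

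Most of the spread of the members was beyond counting error; with 1 library per heifer, heifer and library preparation cannot be told apart. Counting error made up 12.6% of the variance of ESR1 among fertile and 3.59% among subfertile heifers. For NNAT the shares were 0.759% and 16.6%, and for BMP1 19.5% and 3.99%. For reference over the whole table, 182 of 13012 genes (1.40%) passed the thresholds of the study, an unadjusted P of 0.05 or less with an absolute log2FC of 0.5 or more, with 86 higher (0.661%) and 96 lower (0.738%) in subfertile heifers. With the DESeq2 Wald test that the study used, 230 genes passed the same thresholds. By edgeR 341 genes had an unadjusted P of 0.05 or less and 0 an adjusted one. Neither ESR1 nor BMP1 passed by either test, and NNAT was not among the 182 genes by edgeR. NNAT had been chosen partly for this contrast, so that is given as a description.

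Among fertile heifers the members moved together, as chosen. On variance-stabilized counts, Pearson's r was 0.993 for ESR1 with NNAT (Spearman's rho 0.943), -0.977 for ESR1 with BMP1 (rho -1.0) and -0.979 for NNAT with BMP1 (rho -0.943), over 6 heifers. LM1298 and LM1330 were the highest for ESR1 and NNAT and the lowest for BMP1. With LM1330 left out the values were 0.982, -0.920 and -0.938, and with both left out, 4 heifers, they were 0.875, -0.928 and -0.961. These 4 heifers are among those the members were chosen on, and their ESR1 lay between 2.18 and 2.78 CPM with counting errors of 14.1% to 16.7% each, so the values without LM1298 and LM1330 lend no support of their own.

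These pairings were not the tightest in the table. In fertile heifers 4 genes had a larger absolute r with ESR1 than NNAT had, and 25 had a larger one than BMP1. In subfertile heifers those numbers were 803 and 9659, of 13011 genes.

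Among subfertile heifers, which did not enter the fertile correlations, the members did not keep this arrangement. ESR1 with NNAT had an r of -0.793 (two-sided exact permutation test over 720 pairings, P = 0.0722, adjusted over 3 pairs 0.217; rho -0.543, exact P = 0.297, adjusted 0.446). ESR1 with BMP1 had an r of -0.230 (exact P = 0.693, adjusted 0.693; rho 0.0286, exact P = 1.0), and NNAT with BMP1 an r of 0.563 (exact P = 0.25, adjusted 0.375; rho 0.657, exact P = 0.175, adjusted 0.446). None passed 0.05, and the smallest P that 6 heifers allow by rho is 0.002778. ESR1 had been picked partly for having fewer partners in this group, so a weaker relation of ESR1 there is not independent of the choice. The P values of the pairs with ESR1 therefore lend no support of their own. The difference in r between the groups was not tested.

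The subfertile values of ESR1 rested on LM1246, which had the highest ESR1, the lowest NNAT and the second lowest BMP1 among subfertile heifers. Without it the r of ESR1 with NNAT was -0.0933 and that of ESR1 with BMP1 0.279. Without LM1246 and LM1265, the 2 subfertile heifers farthest from the ESR1 median, these were 0.501 and 0.876 over 4 heifers. NNAT with BMP1 was less dependent on a single heifer, between 0.440 and 0.678 as each was left out.

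**Figure D2:**
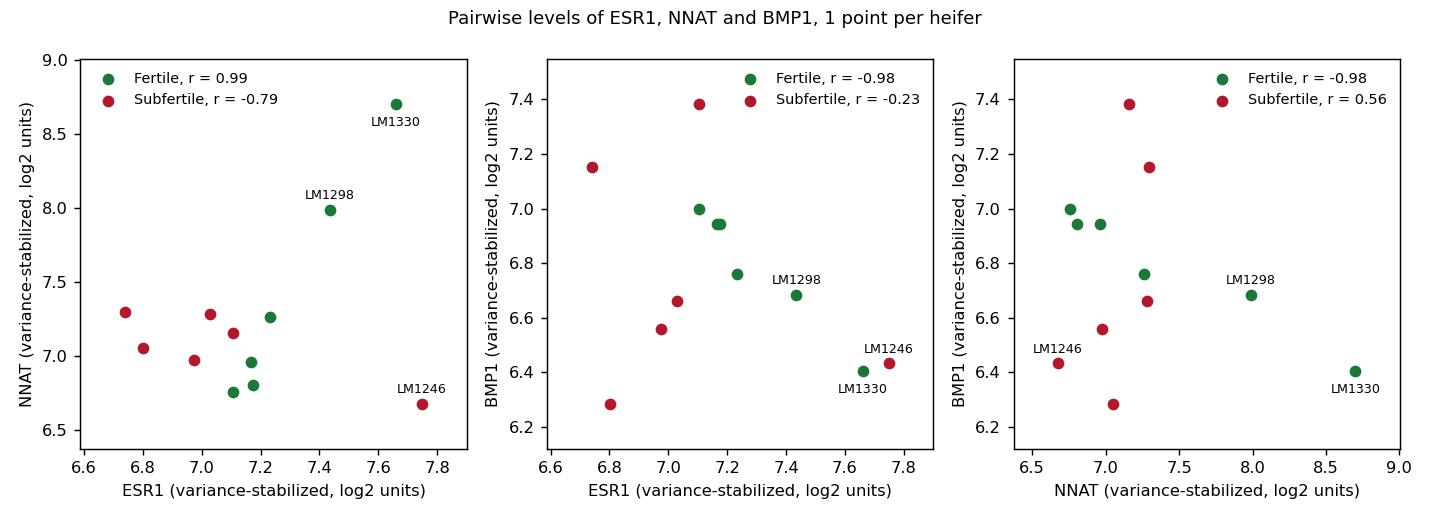
Variance-stabilized counts (log2 units) of each pair of members, 1 point per heifer, fertile in green and subfertile in red, with Pearson's r per group. LM1330 and LM1298 lie at the high end of ESR1 and NNAT among fertile heifers, and LM1246 joins high ESR1 to low NNAT and low BMP1.

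Over all 12 heifers the relations were weak, with an r of 0.369 for ESR1 with NNAT (rho -0.0280), -0.343 for ESR1 with BMP1 (rho -0.224) and -0.255 for NNAT with BMP1 (rho -0.0909). Subtracting the group means gave 0.284, -0.404 and -0.291. For ESR1 with NNAT, r was -0.0454 without LM1330 and 0.711 without LM1246. ESR1 with BMP1 was -0.643 without LM1313 and 0.0989 without LM1246 and LM1330, the heifers farthest from the ESR1 median. NNAT with BMP1 was 0.0423 without LM1330 and 0.235 without LM1298 and LM1330.

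**Figure D3:**
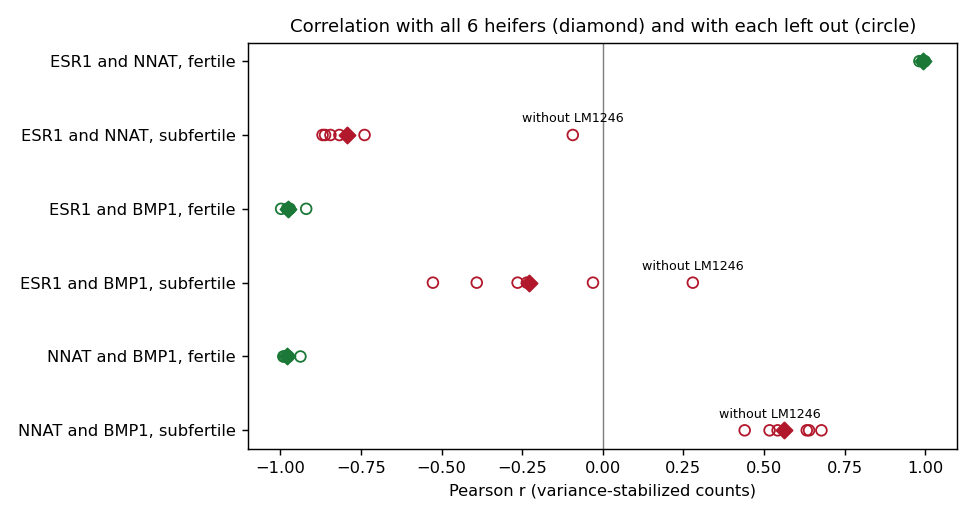
Pearson's r of each pair within each group with all 6 heifers (diamonds) and with each heifer left out in turn (circles). The fertile values stay between 0.982 and 0.999 for ESR1 with NNAT, while the subfertile value of the same pair moves from -0.793 to -0.0933 without LM1246.

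The partners of each member were counted as genes at an absolute r of 0.95 or more, out of all genes kept and without further pruning. In fertile heifers ESR1 had 102 partners (0.784% of genes), NNAT 81 (0.623%) and BMP1 95 (0.730%), beside 0.598% over all pairs of genes. In subfertile heifers ESR1 had 33 (0.254%), NNAT 120 (0.922%) and BMP1 109 (0.838%), beside 1.01% over all pairs. A gene had a median of 56 partners in fertile and 61.5 in subfertile heifers. ESR1 and NNAT shared 61 fertile partners, 59.8% of those of ESR1 and 75.3% of those of NNAT, and 35 were partners of all 3 members. In subfertile heifers the members shared 0 partners in any pairing. Their partners there were 0.254%, 0.922% and 0.838% of all genes, so sharing 0 is near the share over all genes. Genes as closely correlated as the members in fertile heifers must share partners, so the fertile sharing restates the correlations the members were chosen on. At the looser limit of 0.90, ESR1 had 430 partners in fertile and 162 in subfertile heifers, where 2.21% and 3.47% of all pairs passed.

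The share of partners common to both groups was near that over all genes. Of the 102 fertile partners of ESR1, 0 were among its subfertile partners, which were 0.254% of all genes. For NNAT it was 1 of 81 (1.23%) beside 0.922% of all genes, and for BMP1 1 of 95 (1.05%) beside 0.838%. In subfertile heifers 22 of the 102 (21.6%) had the same sign of r with ESR1 as in fertile heifers, where 37.2% of all genes did. For NNAT the share was 59.3% of 81 partners beside 59.8% of all genes, and for BMP1 41.1% of 95 beside 42.7%. Partners taken in subfertile heifers and seen in fertile heifers had the same sign in 18.2% of 33 for ESR1 (37.2% of all genes), 79.2% of 120 for NNAT (59.8%) and 61.5% of 109 for BMP1 (42.7%). The partners were chosen at an extreme in one group, so their smaller r in the other is not a finding about them.

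The counts depended on which heifers were included. With LM1330 left out, 5 fertile heifers remained and the median gene had 174 partners; ESR1 then had 127, NNAT 102 and BMP1 115, and 19.4%, 6.10% and 12.01% of genes had fewer partners than each. With all 6 heifers those shares were 74.8%, 67.2% and 72.5%. In the subfertile group, the share of genes with fewer partners than ESR1 was 25.5% with all 6 heifers, 3.23% without LM1246 and 79.7% without LM1283.

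**Figure D4:**
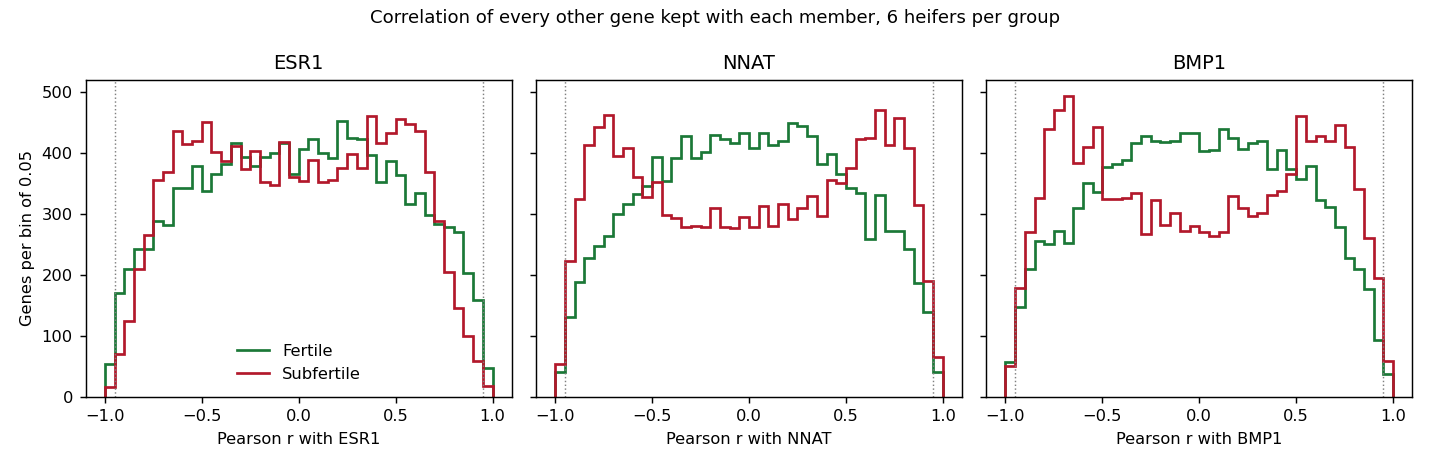
Number of genes in each interval of 0.05 of Pearson's r with ESR1, NNAT or BMP1, in fertile (green) and subfertile (red) heifers; dotted lines mark an absolute r of 0.95. ESR1 has more genes beyond the lines in fertile heifers (102 against 33), and NNAT and BMP1 have more in subfertile heifers (120 against 81 and 109 against 95). Over all pairs of genes the share beyond the lines was also larger in subfertile heifers (1.01% against 0.598%). Genes with fewer partners than NNAT were 67.2% in fertile and 67.7% in subfertile heifers. The same shares were 72.5% and 65.4% for BMP1, and 74.8% and 25.5% for ESR1.

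SMARCE1, a subunit of the SWI/SNF chromatin remodelling complex that the study names beside ESR1, had an r with ESR1 of 0.973 in fertile and -0.252 in subfertile heifers. Its r with NNAT was 0.944 and 0.557, and with BMP1 -0.944 and -0.0438. Its level was 126 to 160 CPM in fertile and 131 to 139 CPM in subfertile heifers. Among subfertile heifers counting error made up 93.6% of its variance, so a correlation there was hardly measurable at this depth. Other partners the study names (CD163, CR2, CSF3R, IRF2 and SRSF3) were not analysed here.

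Genes most like each member were taken by r over all 12 heifers, 5 at each end. Most of these genes have no symbol in the name tables used. For ESR1 the named genes were F2, prothrombin, at an r of 0.778 (0.798 in fertile and 0.977 in subfertile heifers), and CENATAC, a spliceosome protein gene, at -0.866 (-0.875 and -0.937). The r of F2 was 0.666 without LM1246 and 0.693 without LM1330, and its rho was 0.503. F2 was low, between 0.640 and 4.05 CPM, and highest in LM1330 among fertile and in LM1246 among subfertile heifers, the same heifers as for ESR1. CENATAC lay between 37.0 and 48.5 CPM.

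For NNAT they were GADD45G, a stress-induced growth arrest gene, at an r of 0.943 (0.974 in fertile and 0.967 in subfertile heifers), GOLGA7, part of a palmitoyltransferase of the Golgi, at 0.924 (0.920 and 0.863), and MSR1, the macrophage scavenger receptor, at -0.878 (-0.971 and -0.496). GADD45G was between 1.32 and 7.07 CPM in fertile and between 0.466 and 2.79 CPM in subfertile heifers, a range close to that of NNAT in the latter. Its r with NNAT was 0.913 without LM1330 and 0.965 without LM1246. It was the 1 named gene at an absolute r of 0.95 or more with NNAT in both groups. Without LM1330 the r with NNAT was 0.801 for GOLGA7 and -0.777 for MSR1.

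For BMP1 the genes were PGS1, which encodes a phosphatidylglycerophosphate synthase of mitochondria, at an r of 0.927 (0.850 and 0.984), and MAP3K6, a stress-activated kinase, at 0.902 (0.968 and 0.882). At the other end were EXOSC3, a subunit of the RNA exosome, at -0.872 (-0.490 and -0.990), SERTAD2 at -0.854 and CAAP1 at -0.849. MAP3K6 lay between 1.69 and 5.75 CPM in fertile and between 1.24 and 8.57 CPM in subfertile heifers. The nearest genes of BMP1 had an r of 0.902 to 0.931 and those of NNAT 0.922 or more, above the 0.778 to 0.873 of ESR1. Without LM1330 the same genes had an r of 0.765 to 0.913 for NNAT and 0.693 to 0.836 for ESR1, which overlap. For BMP1 it was then 0.888 to 0.932.

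Markers of other blood cells moved with NNAT and BMP1, while none of the relations of ESR1 passed the test (smallest adjusted permutation P 0.140 by r and 0.376 by rho). In all, 33 relations were computed over the 12 heifers, of 3 members with 9 sums of named markers, the share of the most abundant gene and the library total, after the marker values had been seen. At most 4 genes of any marker list have a symbol (4 of 8 for T cell, NK cell and platelet markers). The tables that name them were made by the study from these heifers. By permutation test of Pearson's r with 100000 resamples, 4 of the 33 passed an adjusted P of 0.05, and 2 did by rho. NNAT and BMP1 had also been chosen on fertile values that enter these tests. Passing therefore describes these heifers and lends no support of its own.

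BMP1 rose with neutrophil markers. The sum of CXCR2, a neutrophil chemokine receptor, and S100A9, a calcium-binding protein of granulocytes and monocytes, was lowest in LM1330 at 21.7 CPM and highest in LM1283 at 215 CPM, where BMP1 was at 0.242 and 3.59 CPM. The r of log2 sum with BMP1 over 12 heifers was 0.817 (permutation test, P = 0.00143, adjusted 0.0224) and rho 0.860 (permutation P = 0.00074, adjusted 0.0244). It was 0.877 within the fertile and 0.927 within the subfertile group, and 0.775 without LM1283 and LM1330. S100A9 held nearly all of the sum; CXCR2 had 0 reads in LM1330, which allows up to 0.181 CPM, and at most 7.81 CPM elsewhere. Of the 8 neutrophil markers 2 have a symbol.

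For ESR1 no relation with the neutrophil sum was detected over the 12 heifers, with an r of -0.427 (permutation P = 0.167, adjusted 0.489). Within the fertile group, however, ESR1 had an r of -0.947 with that sum, and NNAT -0.928, against -0.0796 and 0.416 within the subfertile group. The platelet sum, described next, had an r of 0.786 with ESR1 and -0.826 with BMP1 in fertile heifers, against -0.793 and 0.729 in subfertile heifers. The sum of VWF and TEK had 0.896 and -0.929, against -0.532 and 0.780. These values are those of VWF, which alone had 0.901 and -0.932 in fertile and -0.500 and 0.771 in subfertile heifers. TEK alone ran the other way in fertile heifers, with -0.940 and 0.949, against -0.310 and -0.0796 in subfertile heifers. The part of these cells in the correlations among the members was not tested.

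NNAT rose with platelet markers and with VWF. The platelet sum was 9913 CPM in LM1330, where NNAT was highest, and 528 CPM in LM1246, where NNAT was lowest. The r was 0.790 (permutation test, P = 0.00204, adjusted 0.0224), 0.781 in fertile and 0.898 in subfertile heifers. It fell to 0.451 without those 2 heifers and rho missed the threshold (0.713, permutation P = 0.0119, adjusted 0.0978), so the pooled relation rests on them. The sum of VWF, von Willebrand factor of platelets and endothelium, and TEK had an r of 0.839 (permutation P = 0.00081, adjusted 0.0224) and 0.677 without LM1244 and LM1330, with 0.894 and 0.805 within the groups; rho was 0.804 (permutation P = 0.00256, adjusted 0.0422). VWF made up most of this sum, from 548 of 549 CPM in LM1330 to 23.5 of 29.6 CPM in LM1259. TEK, an endothelial receptor, ran the other way, with an r with NNAT of -0.715 over 12 heifers, -0.923 in fertile and 0.163 in subfertile heifers, where VWF alone had 0.842, 0.897 and 0.783. The remaining relation was that of NNAT with the T cell sum (r 0.714, permutation P = 0.00604, adjusted 0.0498; rho 0.657, permutation adjusted 0.159), which was 0.565 without LM1330 and 0.725 without LM1246 and LM1259.

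**Figure D5:**
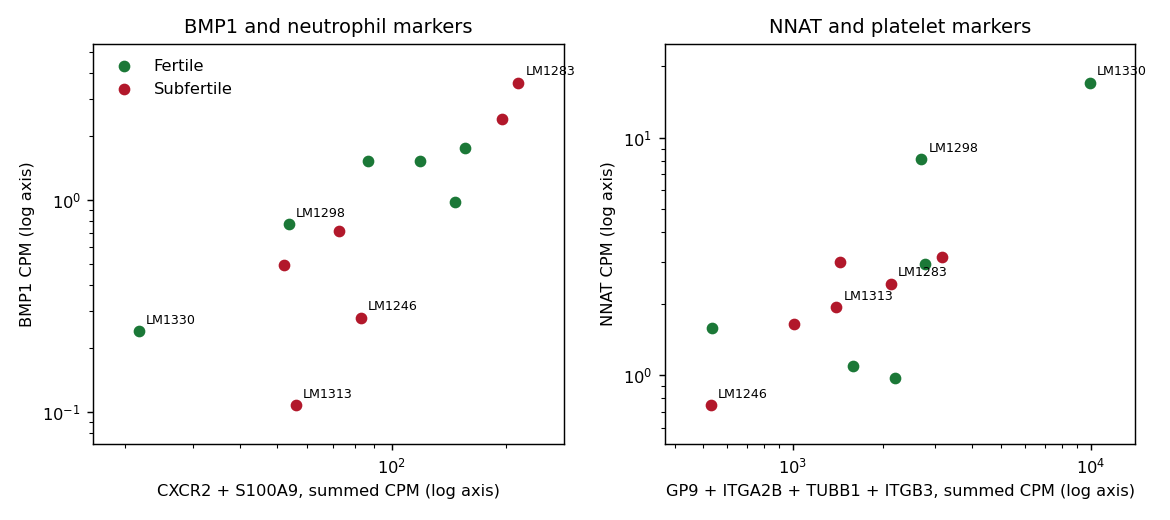
BMP1 against the summed level of CXCR2 and S100A9, and NNAT against the summed level of GP9, ITGA2B, TUBB1 and ITGB3, in CPM on log axes, 1 point per heifer, fertile in green and subfertile in red. BMP1 and the neutrophil sum rise together in both groups (r 0.877 and 0.927), and LM1330 and LM1246 mark the ends of the NNAT plot.

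Genes that work with the members were taken from 8 lists. Between 6.67% and 26.3% of each list could be matched to a symbol, too few for a statement about a list, and the named genes come from tables the study chose on these heifers. Of 30 list genes kept besides the members, 1 passed the thresholds (background 1.40% of all genes): ATP2A1, a sarcoplasmic calcium pump of the family that neuronatin is known to modulate. It was between 2.06 and 3.88 CPM in fertile and between 3.28 and 6.31 CPM in subfertile heifers, with overlap, and 6 of 6 subfertile heifers were above the fertile median. Its log2FC was 0.57 (SE 0.24; edgeR adjusted P = 0.9998). No list gene passed the thresholds when LM1330 or LM1259 was left out.

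Estrogen receptor partners did not pass the test. The corepressor NRIP1 had a log2FC of 0.01 (SE 0.16), PELP1, a coregulator, -0.04 (SE 0.18), and the receptor chaperone HSP90AB1 0.02 (SE 0.10). Of the named genes known as estrogen targets, XBP1, MYC, RARA and RET had log2FC values between -0.02 and 0.12, and FHL2 had -0.35 (SE 0.18). FHL2 had an r with ESR1 of 0.864 in fertile and -0.818 in subfertile heifers, but with NNAT 0.814 and 0.883. HSD17B12, which elongates fatty acids and can reduce estrone, had r values of 0.904, 0.903 and -0.917 with ESR1, NNAT and BMP1 in fertile heifers. It was at 196 CPM in LM1330 and at most 73.5 CPM in the other fertile heifers.

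Of the genes of BMP and TGF-beta signalling, 7 were named and 0 passed. The ligands TGFB1 and TGFB2 had log2FC values of -0.31 (SE 0.22) and -0.12 (SE 0.65), and the receptors ACVR1, BMPR1A and TGFBR1 -0.70 (SE 0.38), 0.29 (SE 0.40) and -0.09 (SE 0.24). SMAD2, which relays TGF-beta signals, was at 0.01 (SE 0.10) and its repressor SKIL at -0.00086 (SE 0.19). ACVR1 had an r with BMP1 of -0.694 in fertile and 0.938 in subfertile heifers. The list of BMP1 family members, cofactors and substrates held 1 named gene besides BMP1, LMNA, nuclear lamin A/C, which is no known substrate, with a log2FC of -1.05 (SE 0.52).

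NNAT lies within the span of BLCAP in the RefSeq annotation of ARS-UCD2.0, another assembly than the one the reads were mapped to. BLCAP was at 80.8 to 180 CPM in fertile and 89.4 to 126 CPM in subfertile heifers, far above NNAT, and its r with NNAT was 0.843 and 0.787 within the groups. Which strand was counted is not stated, so reads of the overlapping genes may not be told apart. GRB10, another imprinted gene and an adaptor of the insulin receptor, had an r of 0.958 with ESR1, 0.969 with NNAT and -0.962 with BMP1 in fertile heifers, and of -0.557, 0.865 and 0.695 in subfertile heifers. It was at 12.02 CPM in LM1330 and at most 5.64 CPM in the other fertile heifers, and its log2FC was -0.79 (SE 0.48). IGF2R and TSSC4, also imprinted, had log2FC values of -0.06 (SE 0.11) and 0.0049 (SE 0.28).

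The PI3K-AKT genes around FOXO3, a transcription factor that AKT inhibits, likewise held 0 that passed. PIK3CB, PIK3R1, AKT2, INPP5D and the glucose transporter SLC2A3 had log2FC values between -0.11 and 0.15, and FOXO3 had -0.30 (SE 0.22). The calcium channel genes ITPR2 and ORAI3 were at -0.13 (SE 0.20) and -0.05 (SE 0.10). The median log2FC of all 13012 genes was 0.01.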

How the data were processed

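PWBC RNA of 12 heifers (6 fertile, 6 subfertile) was extracted in a single batch and sequenced as poly(A)-selected, directional paired-end libraries in a single run. The authors checked reads with FastQC 0.11.9 and MultiQC 1.12 and mapped them with STAR 2.7.5 to ARS-UCD1.3; the deposited values are raw counts per Ensembl gene, without normalization, and the strand counted is not stated. Symbols came from supplementary tables, which name 2898 of the 13012 genes kept.

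Genes were kept with filterByExpr (minimum count 10, proportion 0.7, with groups), scaled by TMM and tested with the quasi-likelihood test of edgeR 4.0.16 (R 4.3.3), group as the only term, with Benjamini-Hochberg adjustment over all genes. Correlations used blind variance-stabilized counts of DESeq2 1.42.0. Permutations ran in Python 3.11.15. Alternatives were DESeq2, voom with limma 3.58.1, RLE or library size alone, other filters, the reproductive tract score as a term, log2 CPM scales, another r threshold and each heifer left out. The edgeR fit and the exact permutation test were also run on simulated data.

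No library was a repeat of another in its group (chi-square per gene at least 22.8). The members, lists and tests were chosen with earlier results of these data known. The genes named are the members, the 5 with the highest and 5 with the lowest r with each over all heifers where they have a symbol, partners of ESR1 that the study names and that have an identifier in the name tables (SMARCE1), list genes past both thresholds, and other list genes by role. Of the list genes, those named beyond the ones the rule gives were chosen after their values were seen, to give every named gene of a list. The marker relations were added after seeing the data. One of the genes most like BMP1 and the monocyte marker sum are not reported here, for a reason unrelated to their values.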

Additional observations from a re-analysis of the deposited data

Results flagged for a closer look

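In all, 90 groups of 6 heifers were tested, over 45 genes: the members, the list genes, SMARCE1 and the named genes most like the members. In 11 of these groups a single heifer lay apart from the others by a gap past Dixon's 95% critical value. For normally distributed values chance alone gives about 1 in 20 groups. Here the values were CPM without a log, the genes were correlated, and some were chosen for following the members. Whether 11 of 90 is more than chance gives was therefore not tested. Among subfertile heifers ESR1 was 5.96 CPM and F2 3.77 CPM in LM1246, where the next heifers were at 2.20 and 1.62 CPM. Also among subfertile heifers, LM1259 was highest for HSP90AB1 at 1054 CPM and lowest for SLC2A3 at 168 CPM. Among fertile heifers LM1330 was highest for 6 genes: HSD17B12 at 196 CPM, TGFB2 at 13.9 CPM, ACVR1 at 11.3 CPM, GRB10 at 12.02 CPM, F2 at 4.05 CPM and GOLGA7 at 179 CPM. LM1244 was highest for PIK3CB at 24.7 CPM. LM1330 also held the highest platelet marker sum, and the part of platelets in these values was not tested.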

How the results depend on the processing

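No paired analysis was possible because the labels carry no replicate numbers that pair heifers of the 2 groups. The log2FC of ESR1 lay between -1.04 and -0.26 as each heifer was left out, and was -0.72 with the reproductive tract score as a term. That of NNAT kept its direction in 19 of 19 alternatives but was -0.67 with voom and -0.47 without LM1330, against -1.31. The log2FC of BMP1 reversed with voom (-0.56) and without 3 heifers (-0.54, -0.14 and -0.08), with a range of -0.54 to 0.39 as each was left out; the filter without groups removed BMP1 and gave no value. The genes past the thresholds numbered 118 to 365 as each heifer was left out and 624 with no filter beyond 1 count, against 182, and the list genes 0 to 3, or 2 with library size alone or no filter beyond 1 count, against 1. In fertile heifers, r of ESR1 with NNAT was 0.983 on log2 CPM with a prior count of 2, 0.982 with one of 0.5, 0.965 with library size alone and 0.875 without the 2 farthest heifers; as each was left out it lay between 0.982 and 0.999. ESR1 with BMP1 was -0.922 with library size alone and -0.928 without the 2 farthest, and between -0.998 and -0.920 as each was left out. NNAT with BMP1 was -0.959 with a prior count of 2, -0.950 with one of 0.5 and -0.949 with library size alone, and between -0.991 and -0.938 as each was left out. In subfertile heifers, leaving out the 2 farthest reversed ESR1 with NNAT (0.501) and ESR1 with BMP1 (0.876), and the latter lay between -0.527 and 0.279 as each was left out. Over 12 heifers, ESR1 with NNAT was 0.200 with library size alone and between -0.0454 and 0.711 as each was left out. ESR1 with BMP1 was -0.222 with a prior count of 0.5, 0.0989 without the 2 farthest and between -0.643 and -0.202 as each was left out. NNAT with BMP1 was 0.235 without the 2 farthest and between -0.394 and 0.0423 as each was left out. At an absolute r of 0.90, ESR1, NNAT and BMP1 had 430, 351 and 336 partners in fertile and 162, 533 and 482 in subfertile heifers, where 2.21% and 3.47% of all pairs passed. With 5 heifers, the counts ran from 127 to 359, 102 to 341 and 115 to 327 in fertile, and from 84 to 414, 221 to 539 and 197 to 782 in subfertile heifers. Fewer heifers give more pairs past a fixed r. Beyond that, the cause was not tested. BMP1 had the fewest reads, with 2 to 62 per library.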
